A study of Mus musculus with 4 samples.

Results

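The Polycomb and Trithorax groups are families of chromatin proteins that keep genes silent or active through cell division. The description covers 37 listed genes of these groups, of 26286 genes in the count table. They were taken from a list of gene names and matched by symbol, 33 by their present symbol and 4 by an older one (Mll1 for Kmt2a, Wbp7 for Kmt2b, Mll3 for Kmt2c and Mll2 for Kmt2d). The list was chosen with earlier results of these data known. The symbols were those of the 12662 genes with a deposited expression value (log2 RPKM, reads scaled to depth and gene length). Genes with very few reads, such as Cd3e, Cd8a and Ly6g, had no symbol there, so the match was not independent of expression. All 37 were found and all 37 passed the filter on low counts, with no fewer than 143 reads in any library.

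RNA was sequenced from bone marrow LSK cells of C57BL/6 mice. LSK cells lack markers of mature blood lineages, carry Sca-1 and Kit, and include the blood stem cells and multipotent progenitors. The comparison sets 2 libraries whose labels give a deletion of Hhex against 2 of wild-type genotype. Hhex encodes a homeobox transcription factor. The sources used here do not give the kind of Hhex allele, the Cre driver, or the age and sex of the mice.

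Polycomb repressive complex 2 (PRC2) methylates histone H3 on the residue H3K27, and Polycomb repressive complex 1 (PRC1) puts ubiquitin on histone H2A and compacts chromatin. Trithorax group methyltransferases of the Kmt2 family and their shared partners methylate H3 at another lysine and keep genes active, and the Kdm6 demethylases take the H3K27 mark off. In blood stem cells the Polycomb groups are best known for holding the Cdkn2a locus silent, with Bmi1 as its classical regulator, and Kmt2a is the gene broken by translocations in mixed-lineage leukaemia.

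The 4 libraries were of like depth, with total counts of 27871827 to 29501591 reads. Whether each library is from its own mouse is not said in the labels, and a p-value here measures no more than the spread among these libraries. Kit, which was part of the sort, had 605 and 698 CPM (counts scaled to library size) in the Hhex-deleted-labelled libraries and 566 and 601 CPM in wild-type. Ly6a, which encodes Sca-1, had 20.7 and 42.5 against 25.4 and 25.4 CPM. Of the lineage markers the sort removes, Cd3e, Cd8a and Ly6g had at most 12 reads in any library, and each had 0 reads in at least 1 library. Reads of Hhex itself, 179 and 188 against 127 and 115 CPM, were more numerous in the Hhex-deleted-labelled libraries. A gene-level count takes in exons outside a deleted part and therefore does not check the deletion, so libraries are named as labelled. Cdkn2a, the target in the series title, was read 30 and 27 times in the Hhex-deleted-labelled libraries against 1 and 2 times in wild-type, and its neighbour Cdkn2b had 18 and 23 against 1 and 0.

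None of the 37 Polycomb and Trithorax genes passed the test in either direction. The test was edgeR's quasi-likelihood test on counts, with p-values adjusted over all 14912 genes tested and a threshold of 0.05, and it called 2.6% of all genes (1.48% higher and 1.12% lower). At an unadjusted p under 0.05 there were 3 members (Pcgf2, Phc2 and Kdm6a), and 15.8% of all genes passed that limit. DESeq2 called 1 member higher, Kdm6a, and 1 lower, Pcgf2, and called 6.58% of all genes. limma-voom called 0 members, and 1.35% of all genes. In bulk RNA, fewer cells of a type and less RNA per cell cannot be told apart.

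The members also moved little in size. Their log2 fold changes, Hhex-deleted-labelled libraries over wild-type, had a median of 0.06 and ran from -0.76 for Pcgf2 to 0.58 for Kdm6a, and the median over all genes tested was -0.005. A total of 34 of the 37 members, 91.9%, had a log2 fold change within 0.3 of 0, and 73.9% of all genes tested did. For 34 members the 95% interval lay within 2-fold in both directions, as it did for 75.5% of all genes. The members had at least 143 reads in every library and some genes tested had far fewer, so these shares were not matched for level. The members whose interval went beyond 2-fold were Pcgf2, Kdm6a and Kdm6b, so a change of 2-fold lay within the interval of these 3 genes. The libraries of the 2 groups did not overlap for 16 members, of which 11 were higher and 5 lower in the Hhex-deleted-labelled libraries. Over all genes tested this held for 45.5% (21.9% higher and 23.7% lower), so the members' share was near the background.

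**Figure D1:**
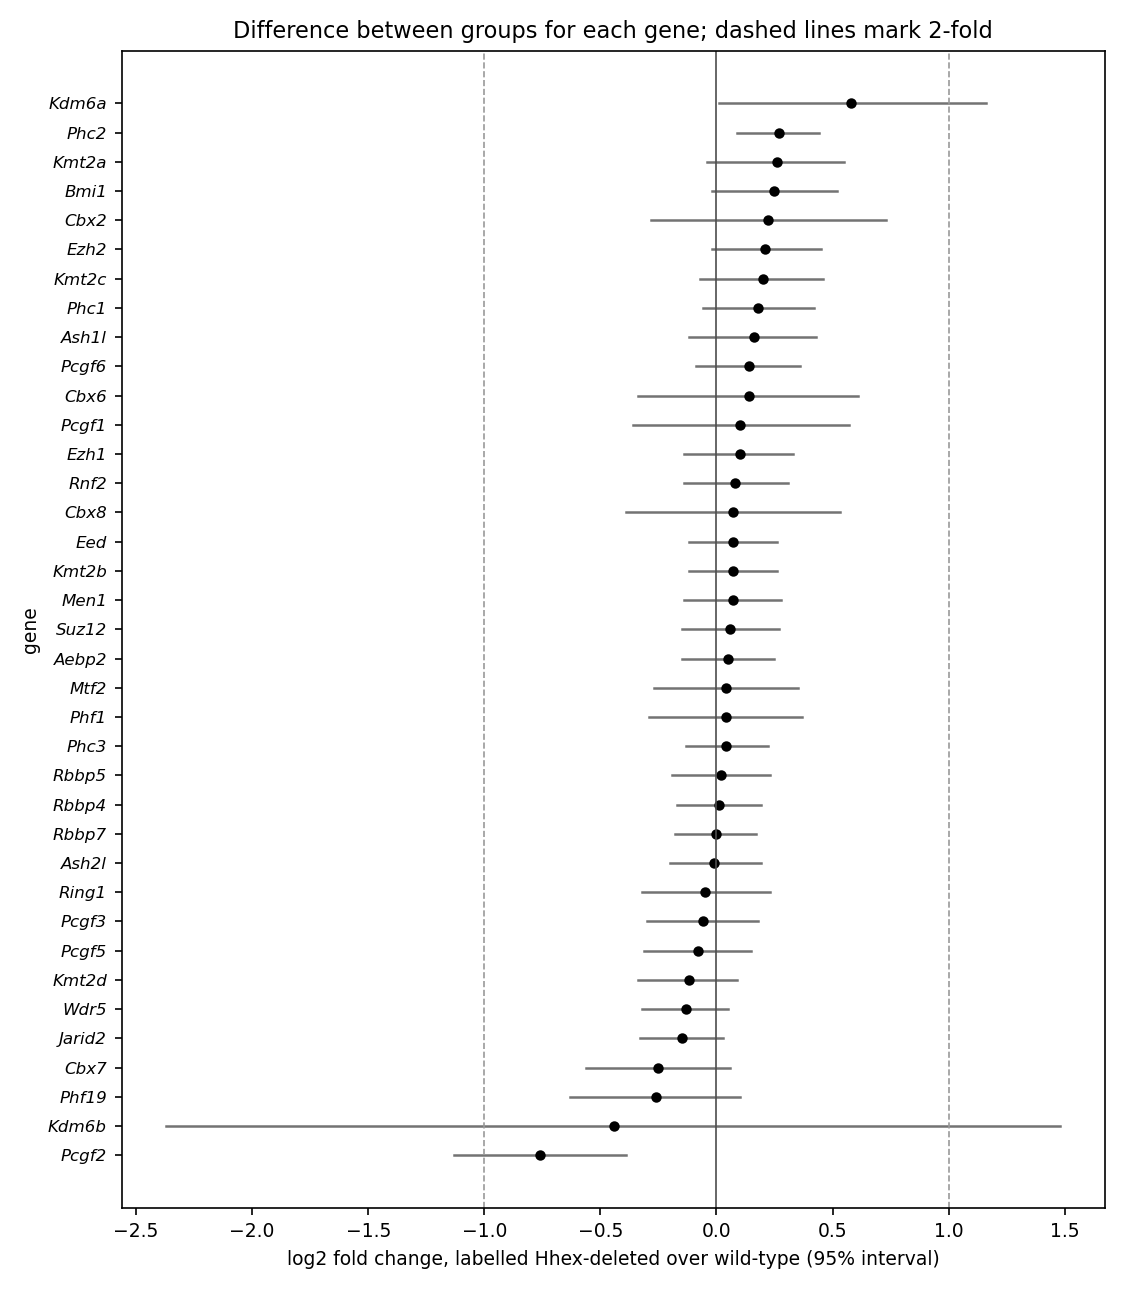
Log2 fold change of each of the 37 genes, Hhex-deleted-labelled libraries over wild-type, with points for the edgeR estimate and bars for its 95% interval. Genes run from the highest log2 fold change at the top to the lowest at the bottom. Most genes lie close to 0, with Pcgf2 at -0.76 and Kdm6a at 0.58 farthest out, and the interval of Kdm6b runs from -2.37 to 1.48.

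As background to these values, summed levels of several blood cell markers differed between the groups. B lineage precursor markers summed to 661 and 939 CPM in the Hhex-deleted-labelled libraries and 183 and 207 CPM in wild-type, with 11 of 12 genes called higher. A single gene made up 475 and 698 CPM of these sums in the Hhex-deleted-labelled libraries and 135 and 153 CPM in wild-type. Mast cell and basophil markers summed to 1123 and 1007 against 345 and 351 CPM, with 6 of 9 tested genes called higher. Granulocyte monocyte progenitor markers summed to 12833 and 9296 against 18489 and 22534 CPM, with 4 of 10 genes called lower. Here too a single gene made up much of the sums, with 8748 and 5846 against 11153 and 13052 CPM. Long-term stem cell markers summed to 908 and 928 against 780.3 and 703 CPM, with 1 of 12 called higher and 1 lower. Without Gata2, which is also expressed in mast cell precursors, these sums were 485 and 592 against 533 and 503 CPM and overlapped. Multipotent progenitor markers summed to 2073 and 2429.7 against 1917 and 1822 CPM, with 1 of 8 called higher. Erythroid and megakaryocyte markers summed to 1066 and 775 against 692 and 589 CPM, with 0 of 10 called. Macrophage markers summed to 80.3 and 88.0 against 97.7 and 115 CPM, with 3 of 7 tested genes called higher and 1 lower. The 1 gene called lower made up 22.3 and 23.4 against 54.1 and 74.9 CPM of these sums, so their direction rests on that gene. The cell cycle genes summed to 6463 and 5969 against 6138 and 6135 CPM, and 0 of 24 were called. The part of these markers in the values of the Polycomb and Trithorax genes was not tested.

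Levels per kilobase of gene length (RPKM) were used to compare members with each other. The 37 genes were mostly well expressed, which the matching by symbol may have set in part, since genes with very few reads such as Cd3e had no deposited symbol. On mean RPKM their median percentile among all genes tested was 61.4, from 33.6 to 96.1, and 27 of 37 stood above the median gene. The highest was Rbbp7, a histone-binding subunit of PRC2 that other chromatin complexes share, with 130.2 and 134 RPKM in the Hhex-deleted-labelled libraries and 132 and 132 RPKM in wild-type. The lowest was Pcgf2, described further on.

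**Figure D2:**
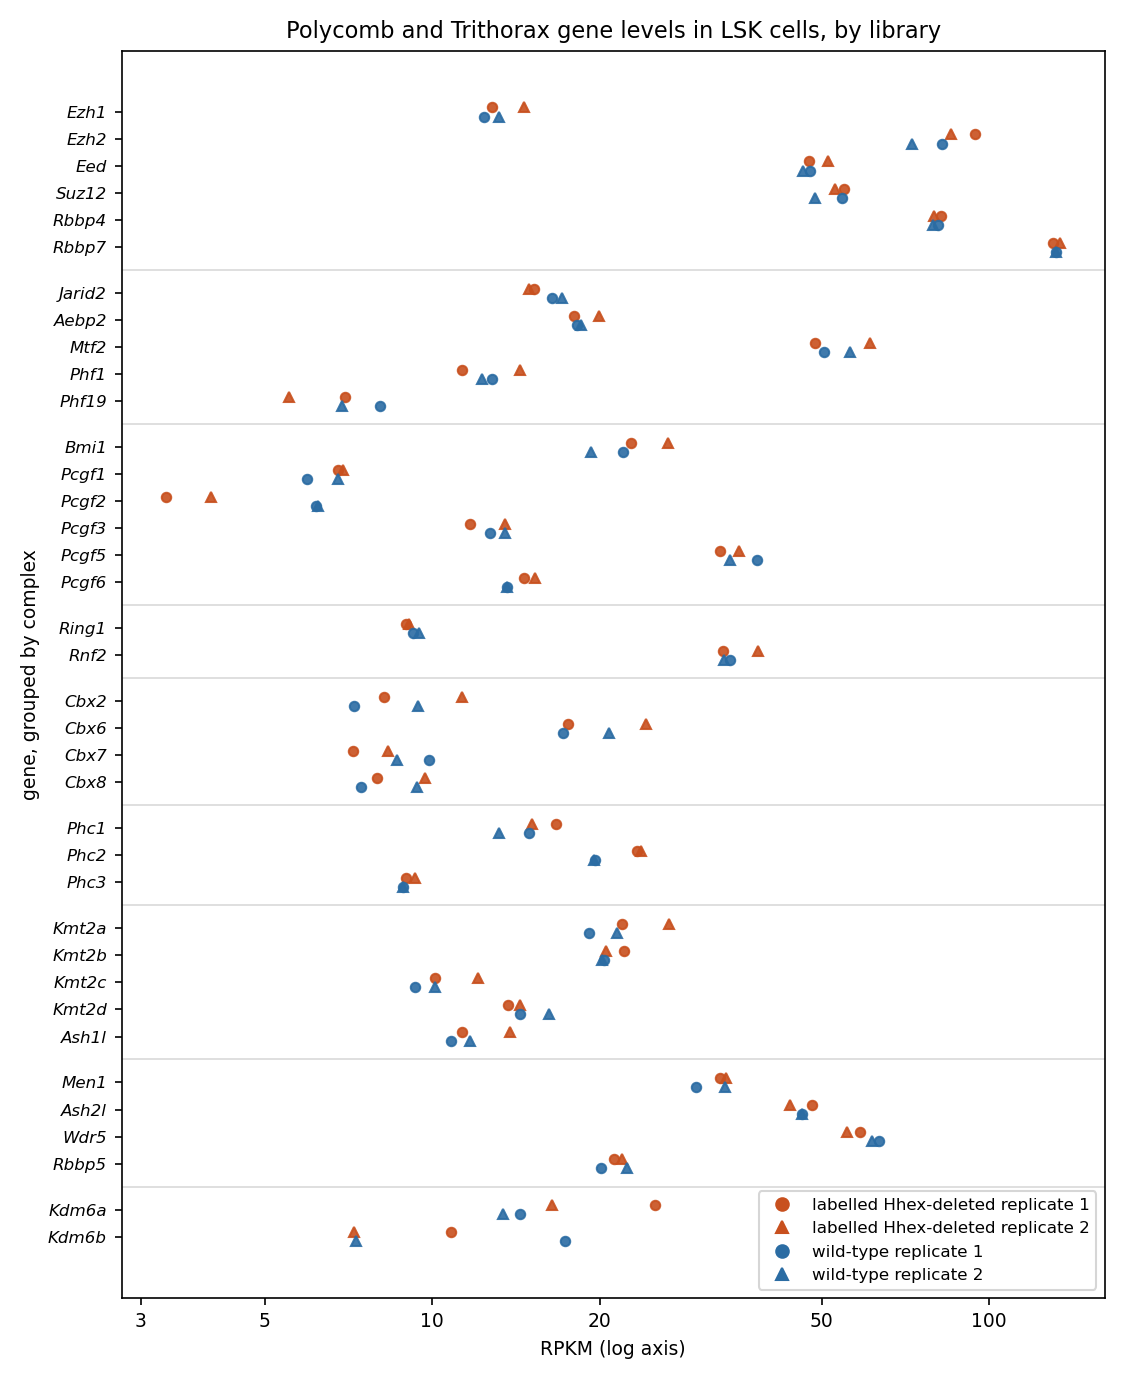
RPKM of each of the 37 genes on a log axis, with one point per library, Hhex-deleted-labelled and wild-type libraries in different colours, ordered by complex. For most genes the 4 points lie close together, and the groups stand apart for Pcgf2, near 3.33 and 4.01 RPKM against 6.19 and 6.23 RPKM.

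Among the core subunits of PRC2, 0 of 6 genes passed the test, and their median log2 fold change was 0.07. Ezh2, the methyltransferase of dividing cells, had 94.2 and 85.4 RPKM in the Hhex-deleted-labelled libraries and 82.1 and 72.6 RPKM in wild-type. Both Hhex-deleted-labelled libraries were above both wild-type libraries, by a log2 fold change of 0.21 ± 0.10 (SE) with an edgeR adjusted p of 0.366. Its paralogue Ezh1, a weaker methyltransferase also found in resting cells, had 12.8 and 14.6 against 12.4 and 13.2 RPKM, and the groups overlapped. Ezh2 was thus the prevailing paralogue in every library, at 7.38 and 5.85 times the RPKM of Ezh1 in the Hhex-deleted-labelled libraries and 6.64 and 5.5 times in wild-type.

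Eed, which binds the methylated residue and stimulates the enzyme, had 47.5 and 51.3 RPKM in the Hhex-deleted-labelled libraries against 47.7 and 46.3 RPKM in wild-type. Suz12, the scaffold of the complex, had 54.8 and 52.9 against 54.5 and 48.7 RPKM. Rbbp4, the paralogue of Rbbp7, had 81.8 and 79.5 against 80.9 and 79.1 RPKM. These 3 genes and Rbbp7 overlapped between the groups, and their fitted folds lay between 0.997 for Rbbp7 and 1.05 for Eed. Rbbp7 stood at 1.59 and 1.68 times the RPKM of Rbbp4 in the Hhex-deleted-labelled libraries and at 1.64 and 1.67 times in wild-type.

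The accessory subunits place PRC2 in one of its alternative forms. Jarid2 and Aebp2 mark one form, and the Polycomb-like proteins Mtf2, Phf1 and Phf19 mark the other. Of these 5 genes 0 passed the test, and the median log2 fold change was 0.04. Jarid2 had 15.2 and 14.9 RPKM in the Hhex-deleted-labelled libraries and 16.4 and 17.1 RPKM in wild-type, without overlap, and the log2 fold change was -0.15 ± 0.07 (SE, adjusted p 0.414 by edgeR). Aebp2 had 18.0 and 19.9 against 18.2 and 18.5 RPKM, and overlapped. The ratio of Aebp2 to Jarid2 was 1.19 and 1.33 against 1.11 and 1.08, a difference of 0.2 on the log2 scale that ran from 0.11 to 0.28 when 1 library was left out.

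Mtf2 was the leading Polycomb-like gene. It had 48.6 and 61.0 RPKM in the Hhex-deleted-labelled libraries and 50.4 and 56.3 RPKM in wild-type, which was 72.7% and 75.3% of the summed RPKM of the 3 Polycomb-like genes against 70.7% and 74.6%. Phf1 had 11.3 and 14.4 against 12.8 and 12.3 RPKM. Phf19 had 6.96 and 5.53 against 8.07 and 6.90 RPKM, with a log2 fold change of -0.26 ± 0.15 (SE, adjusted p 0.502 by edgeR) that was -0.44 without labelled Hhex-deleted replicate 1 and -0.10 with replicate 2 of that group left out. All 3 genes overlapped between the groups.

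PRC1 is built around a Ring protein, which carries the ubiquitin ligase activity, and 1 of 6 Pcgf proteins, which sets the kind of PRC1. Bmi1 and Pcgf2 (also known as Mel18) define canonical PRC1, which binds the H3K27 mark through a Cbx subunit, and Pcgf1, Pcgf3, Pcgf5 and Pcgf6 define variant complexes. The clearest difference among the 37 genes was a lower level of Pcgf2, and Bmi1 was the higher of this pair in every library. Pcgf2 had 3.33 and 4.01 RPKM in the Hhex-deleted-labelled libraries and 6.19 and 6.23 RPKM in wild-type. Both Hhex-deleted-labelled libraries were thus below both wild-type libraries, and the spread within a group was small next to the gap. In CPM this was 9.45 and 11.4 against 17.5 and 17.7. The fitted log2 difference was -0.76 ± 0.15 (SE) on a 95% interval of -1.13 to -0.39, and the edgeR adjusted p was 0.0651, so the call was missed. DESeq2 gave -0.75 with an adjusted p of 0.00707, and edgeR without the filter on low counts gave an adjusted p of 0.0447. Over all alternatives the log2 fold change of Pcgf2 lay between -0.89 and -0.63, and it was lower in 2 of 2 Hhex-deleted-labelled libraries than in either wild-type library.

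Bmi1 had 22.7 and 26.5 RPKM in the Hhex-deleted-labelled libraries and 22.0 and 19.3 RPKM in wild-type. The groups did not overlap, but labelled Hhex-deleted replicate 1 was close to wild-type replicate 1. The log2 fold change was 0.25 ± 0.11 (SE, adjusted p 0.351 by edgeR), with a 95% interval of -0.02 to 0.52. Without a library it ran from 0.14 to 0.36. The ratio of Bmi1 to Pcgf2, which needs no scaling between libraries, was 6.81 and 6.6 in the Hhex-deleted-labelled libraries and 3.56 and 3.1 in wild-type. On the log2 scale the means were 2.75 ± 0.03 and 1.73 ± 0.14 (SD, n = 2 each), a difference of 1.01 that stayed between 0.91 and 1.11 when any 1 library was left out. The smallest two-sided exact permutation p with 2 libraries against 2 is 0.333, which this ratio gave, so the design cannot call it. It was 1 of 17 paralogue ratios computed, and the groups did not overlap for 8 of them. Some of these ratios share a gene, as those with Cbx7 do. For single genes the groups did not overlap for 45.5% of all tested, and no such share was computed for ratios.

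The promoter windows of this pair are printed because Bmi1 and Pcgf2 are the paralogues that differed most in ratio between the groups, a choice made after the values were seen. Each runs from 250 bases before to 50 bases after a RefSeq start on the mouse build GRCm38.p6, read 5′ to 3′ on the gene's strand. The Bmi1 window lies at chr2:18676768-18677067 on the plus strand and that of Pcgf2 at chr11:97699599-97699898 on the minus strand. Capitals mark the E-box CACGTG and the homeodomain core ATTAA, each searched on both strands. The homeodomain core was searched because Hhex is a homeodomain protein.
Bmi1: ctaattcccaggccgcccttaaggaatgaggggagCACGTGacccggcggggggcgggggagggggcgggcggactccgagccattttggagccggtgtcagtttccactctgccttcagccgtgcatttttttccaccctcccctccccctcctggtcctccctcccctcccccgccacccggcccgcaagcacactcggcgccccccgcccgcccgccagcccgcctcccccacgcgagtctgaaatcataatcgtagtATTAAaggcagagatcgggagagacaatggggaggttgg
Pcgf2: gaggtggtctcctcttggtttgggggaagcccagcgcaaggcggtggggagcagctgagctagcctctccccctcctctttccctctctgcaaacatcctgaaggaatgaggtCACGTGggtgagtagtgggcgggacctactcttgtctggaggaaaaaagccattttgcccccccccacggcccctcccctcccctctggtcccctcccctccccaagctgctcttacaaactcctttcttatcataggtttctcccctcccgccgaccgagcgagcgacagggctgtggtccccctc
Both windows hold 1 E-box, at base 36 in Bmi1 and base 114 in Pcgf2, and only the Bmi1 window of the pair holds ATTAA, at base 262. The Bmi1 window has 23 CpG dinucleotides and the Pcgf2 window 10. RefSeq windows were found for 31 of the 37 genes, 41 windows in all. CACGTG was in 19.5% of them and in 9.7% of 13826 windows of the genes tested. ATTAA was in 22.0% of the members' windows and in 17.2% of those of the genes tested. The members' windows held a median of 23 CpG, from 2 to 56, and those of the genes tested a median of 19. A match describes these letters and is not evidence of binding.

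The other Pcgf genes differed little between the groups. Pcgf5 was the highest of the 6, with 32.8 and 35.6 RPKM in the Hhex-deleted-labelled libraries and 38.3 and 34.2 RPKM in wild-type. Pcgf3, which forms a closely related complex, had 11.7 and 13.5 against 12.7 and 13.5 RPKM. Pcgf6, which joins the E2F6 and Mga factors, had 14.6 and 15.3 against 13.6 and 13.6 RPKM (log2 fold change 0.14 ± 0.09 SE, adjusted p 0.584 by edgeR). Pcgf1, the partner of Bcor and Kdm2b, had 6.78 and 6.91 against 5.97 and 6.77 RPKM. As shares of the summed RPKM of the 6 Pcgf genes, Bmi1 took 24.7% and 26.0% in the Hhex-deleted-labelled libraries and 22.3% and 20.6% in wild-type. Pcgf2 took 3.62% and 3.94% against 6.26% and 6.66%, and Pcgf5 took 35.7% and 35.0% against 38.7% and 36.5%. The order of the family by mean level was Pcgf5, Bmi1, Pcgf6, Pcgf3, Pcgf1 and Pcgf2. Pcgf6 and Pcgf3 were not separated beyond their spread in wild-type, and Pcgf1 and Pcgf2 were close there (6.37 ± 0.566 and 6.21 ± 0.0325 RPKM) but not in the Hhex-deleted-labelled libraries (6.84 ± 0.089 and 3.67 ± 0.479 RPKM, SD, n = 2 each).

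**Figure D3:**
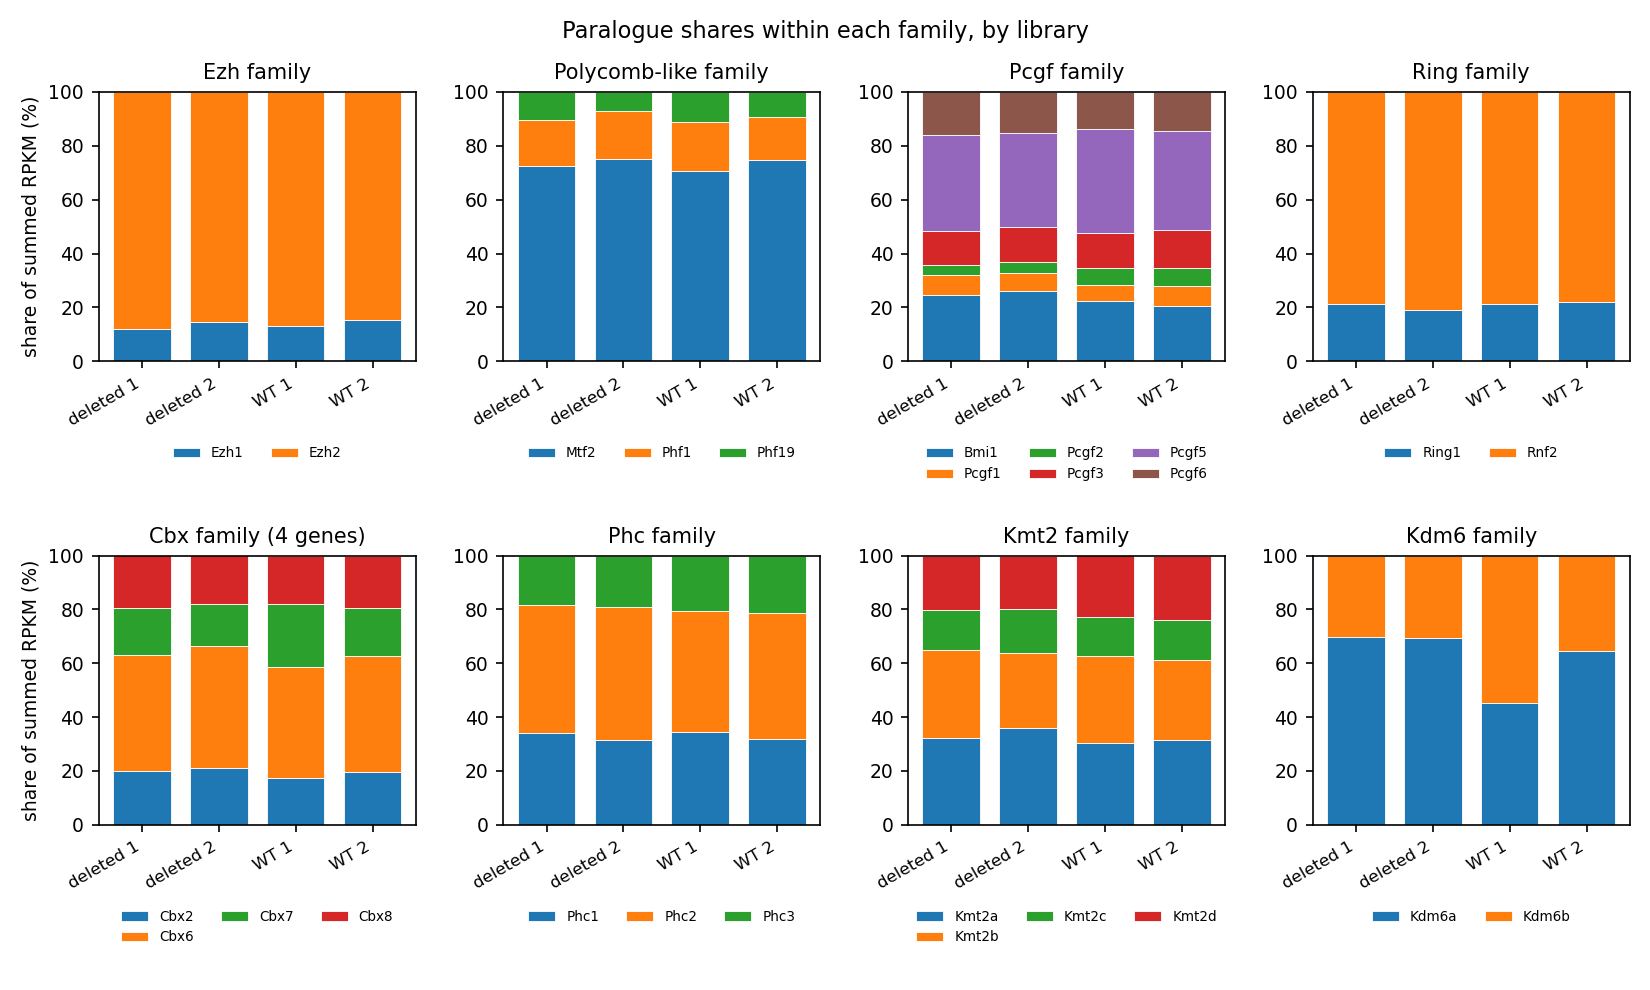
Share of each gene in the summed RPKM of its paralogue family, in percent, as stacked bars per library, with the Hhex-deleted-labelled libraries (deleted 1 and deleted 2) left of wild-type (WT 1 and WT 2). The composition of most families is much alike in the 4 bars, Kdm6b takes its highest share in wild-type replicate 1, and the Pcgf2 band is thinner in the Hhex-deleted-labelled libraries (3.62% and 3.94%) than in wild-type (6.26% and 6.66%).

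Of the Ring ligases, Rnf2 (also Ring1B) prevailed over Ring1 in every library. Rnf2 had 33.2 and 38.5 RPKM in the Hhex-deleted-labelled libraries and 34.2 and 33.4 RPKM in wild-type. Ring1 had 8.99 and 9.10 against 9.25 and 9.45 RPKM, without overlap but with a log2 fold change of only -0.05 ± 0.11 (SE, adjusted p 0.906 by edgeR). The ratio of Rnf2 to Ring1 was 3.69 and 4.23 against 3.7 and 3.53.

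The 4 Cbx genes in the list encode subunits by which canonical PRC1 binds the H3K27 mark, and 0 of 4 passed the test. Cbx6 was the highest, with 17.5 and 24.2 RPKM in the Hhex-deleted-labelled libraries and 17.2 and 20.8 RPKM in wild-type. Cbx2 had 8.2 and 11.3 against 7.23 and 9.43 RPKM, and Cbx8 had 7.97 and 9.69 against 7.44 and 9.40 RPKM. For these 3 genes the groups overlapped, and replicate 2 was above replicate 1 in both groups. Cbx7, the Cbx protein best known for self-renewal of blood stem cells, went the other way, with 7.22 and 8.32 against 9.86 and 8.65 RPKM. Its groups did not overlap, but labelled Hhex-deleted replicate 2 and wild-type replicate 2 were close, and the log2 fold change was -0.25 ± 0.13 (SE, adjusted p 0.433 by edgeR). The ratio of Cbx6 to Cbx7 was 2.42 and 2.91 in the Hhex-deleted-labelled libraries and 1.74 and 2.4 in wild-type, and the difference of 0.38 on the log2 scale was 0.14 without wild-type replicate 1. The ratio of Cbx2 to Cbx7 was 1.13 and 1.35 against 0.733 and 1.09, so Cbx7 was above Cbx2 in wild-type replicate 1 and below it in the other 3 libraries.

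The Phc genes encode the proteins by which canonical PRC1 polymerises. All 3 were higher in both Hhex-deleted-labelled libraries than in both wild-type libraries, by small amounts, which was so for 21.9% of all genes tested, and 0 of 3 passed the test. Phc2 had 23.3 and 23.7 RPKM against 19.6 and 19.5 RPKM. Its replicates were close together and the log2 fold change, 0.27 ± 0.07 (SE), had an unadjusted p of 0.00907 and an adjusted p of 0.129 by edgeR. Phc1 had 16.7 and 15.1 against 14.9 and 13.2 RPKM (log2 fold change 0.18 ± 0.10 SE, adjusted p 0.478 by edgeR). Phc3 had 8.96 and 9.31 against 8.86 and 8.86 RPKM. The ratio of Phc2 to Phc3 was 2.6 and 2.55 in the Hhex-deleted-labelled libraries and 2.21 and 2.2 in wild-type, a difference of 0.22 on the log2 scale.

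**Figure D4:**
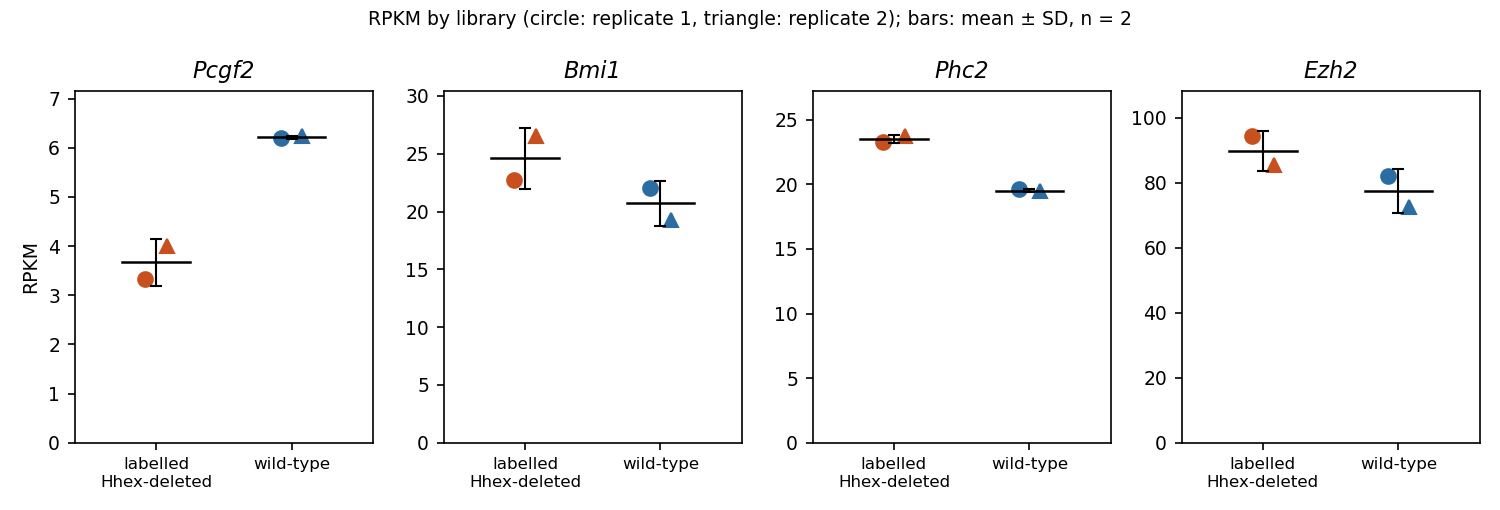
RPKM of Pcgf2, Bmi1, Phc2 and Ezh2 in each library, with a circle for replicate 1, a triangle for replicate 2 and lines for the group mean and its SD (n = 2), labelled Hhex-deleted left of wild-type, and an axis that starts at 0. Pcgf2 stands lower in the Hhex-deleted-labelled libraries (3.33 and 4.01 RPKM against 6.19 and 6.23 RPKM), and Phc2 slightly higher (23.3 and 23.7 against 19.6 and 19.5 RPKM).

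On the Trithorax side, 0 of 5 methyltransferase genes passed the test, and their median log2 fold change was 0.16. Kmt2a, which maintains Hox gene expression in blood stem cells, had 21.9 and 26.6 RPKM in the Hhex-deleted-labelled libraries and 19.1 and 21.5 RPKM in wild-type. The lower Hhex-deleted-labelled library was close to the higher wild-type library, and the log2 fold change was 0.26 ± 0.12 (SE, adjusted p 0.391 by edgeR). It was 0.39 without labelled Hhex-deleted replicate 1 and 0.11 with replicate 2 of that group left out. Its paralogue Kmt2b had 22.1 and 20.5 against 20.3 and 20.2 RPKM. The ratio of Kmt2a to Kmt2b was 0.988 and 1.3 against 0.941 and 1.06, so neither gene was the higher in every library, and Kmt2a led most in labelled Hhex-deleted replicate 2.

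Kmt2c and Kmt2d encode the methyltransferases of enhancers. Kmt2c had 10.1 and 12.1 RPKM in the Hhex-deleted-labelled libraries and 9.3 and 10.1 RPKM in wild-type (log2 fold change 0.20 ± 0.11 SE, adjusted p 0.491 by edgeR), and the log2 fold change was 0.06 without labelled Hhex-deleted replicate 2 and 0.32 with replicate 1 of that group left out. Kmt2d had 13.7 and 14.4 against 14.4 and 16.2 RPKM (log2 fold change -0.12 ± 0.09 SE, adjusted p 0.624 by edgeR). The ratio of Kmt2d to Kmt2c was 1.36 and 1.19 in the Hhex-deleted-labelled libraries and 1.55 and 1.61 in wild-type. The groups did not overlap, and the log2 difference of -0.31 ran from -0.41 to -0.21 when 1 library was left out. Ash1l, which methylates another H3 lysine and opposes PRC2, had 11.3 and 13.8 against 10.8 and 11.7 RPKM.

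The partner subunits of the Kmt2 enzymes differed little between the groups, with a median log2 fold change of 0.01 over Men1, Ash2l, Wdr5 and Rbbp5 and 0 of 4 called. Men1, menin, the partner of Kmt2a and Kmt2b only, had 32.9 and 33.7 RPKM in the Hhex-deleted-labelled libraries and 29.7 and 33.6 RPKM in wild-type. Wdr5, which links the Kmt2 enzyme to the other subunits, had 58.7 and 55.5 against 63.4 and 61.7 RPKM, without overlap (log2 fold change -0.13 ± 0.08 SE, adjusted p 0.505 by edgeR). Ash2l and Rbbp5, core subunits of all Kmt2 complexes, overlapped between the groups. Ash2l had 48.0 and 43.8 against 46.1 and 46.1 RPKM, and Rbbp5 had 21.2 and 21.9 against 20.1 and 22.4 RPKM.

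The H3K27 demethylases were the pair with the widest spread between libraries. Kdm6a (also Utx), an X-linked demethylase that also sits in the Kmt2c and Kmt2d complexes, had 25.1 and 16.4 RPKM in the Hhex-deleted-labelled libraries and 14.4 and 13.4 RPKM in wild-type. Labelled Hhex-deleted replicate 1 stood apart from the other 3 libraries. The log2 fold change was 0.58 ± 0.22 (SE, adjusted p 0.312 by edgeR), 0.24 (adjusted p = 0.236) without that library and 0.86 (adjusted p = 0.0112) without labelled Hhex-deleted replicate 2.

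That library also differed in sex-linked transcripts. Xist, the RNA that coats the inactive X chromosome of females, had 2662 and 2.59 CPM in the Hhex-deleted-labelled libraries and 2.66 and 1.89 CPM in wild-type. Uty, the Y-linked homologue of Kdm6a, had 0.137 and 48.7 against 38.3 and 42.9 CPM. Kdm6a is known in mice as a gene that escapes X inactivation. The summed CPM of Kdm6a and Uty was 133 and 135 in the Hhex-deleted-labelled libraries and 114 and 113 in wild-type. Kdm5c, a demethylase that also escapes X inactivation, had 174 and 139 against 124 and 132 CPM. The part of sex in the values of Kdm6a was not tested. Rbbp7, the other X-linked member, had 130.2 RPKM in that library and 132 to 134 RPKM in the other 3.

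Kdm6b (also Jmjd3), the inducible paralogue, had 10.8 and 7.23 RPKM in the Hhex-deleted-labelled libraries and 17.3 and 7.31 RPKM in wild-type. It was high in the libraries numbered 1 and low in those numbered 2, in both groups. The log2 fold change was -0.44 ± 0.58 (SE, adjusted p 0.829 by edgeR), and it was -0.93 when wild-type replicate 2 was left out and 0.31 when wild-type replicate 1 was. A list of 10 immediate early genes such as Fos and Nr4a1, chosen after the values of Kdm6b were seen, summed to 3595 and 521 CPM in the Hhex-deleted-labelled libraries and 5640.4 and 511 CPM in wild-type. Its part in the values of Kdm6b was not tested. Between the libraries numbered 1 the log2 difference of Kdm6b was -0.67, and between those numbered 2 it was -0.02. The ratio of Kdm6a to Kdm6b was 2.32 and 2.27 against 0.832 and 1.83, so Kdm6b exceeded Kdm6a in wild-type replicate 1 alone.

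**Figure D5:**
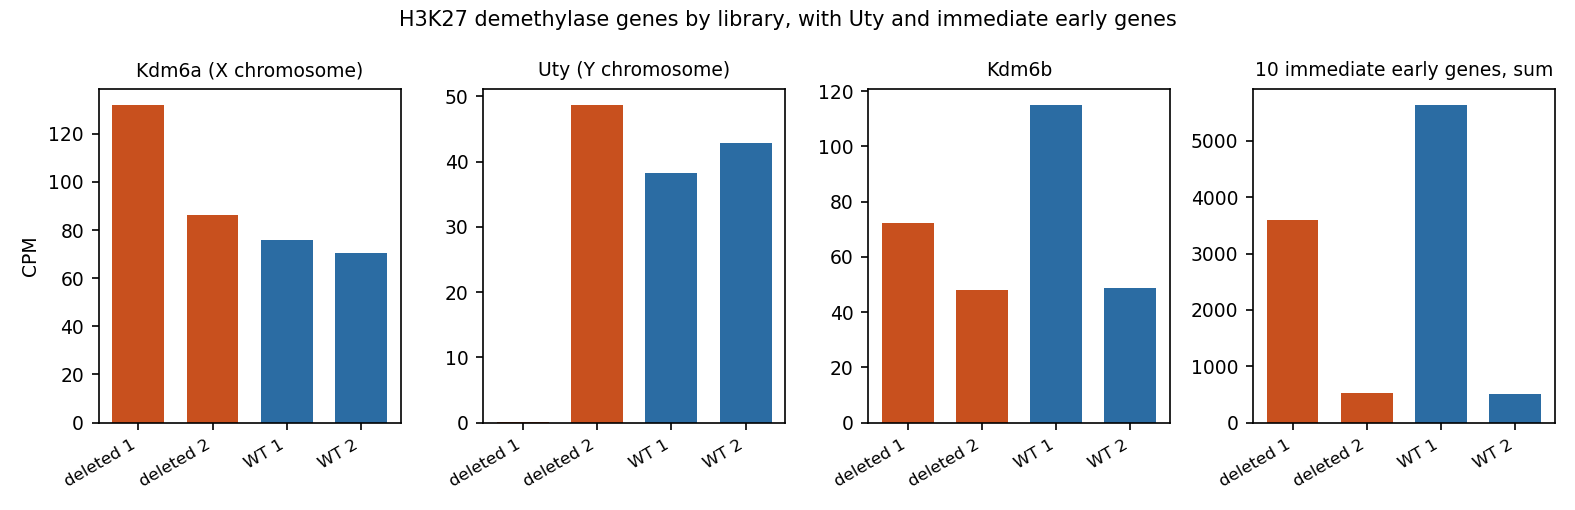
CPM of Kdm6a, Uty, Kdm6b and the summed immediate early genes as a bar per library, with the axis of each panel starting at 0. In each panel the bars marked deleted 1 and deleted 2 are the Hhex-deleted-labelled libraries, and those marked WT 1 and WT 2 are wild-type. Kdm6a is highest in the library with 0.137 CPM of Uty, and Kdm6b is high in the 2 libraries where the immediate early genes sum to 3595 and 5640.4 CPM.

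Related chromatin genes outside the 37 gave a similar picture. Of 85 listed genes 83 were tested, 1 passed the test as higher and 0 as lower, and the median log2 fold change was 0.03. The one was Auts2, a subunit of the Pcgf3 and Pcgf5 complexes, with 13.7 and 12.3 CPM in the Hhex-deleted-labelled libraries and 6.06 and 5.01 CPM in wild-type. Both pairs of replicates were close, and the log2 fold change was 1.23 ± 0.18 (SE, adjusted p 0.0296 by edgeR). With edgeR it was 1.37 (adjusted p 0.0634) once wild-type replicate 1 was left out and 1.11 (adjusted p 0.151) once wild-type replicate 2 was, so either omission ended the call at a fold of like size. limma on the deposited log2 RPKM gave 1.23 and no call (adjusted p 0.113). The remaining 23 of 24 variant PRC1 genes were not called, nor was any of 10 tested genes of the PR-DUB complex, which removes ubiquitin from H2A. The same held for 10 further Kmt2 complex subunits, 24 tested genes of the BAF remodelling complexes, which oppose Polycomb, 13 other histone lysine enzymes and 2 further PRC2 genes. In the BAF list 13 of 24 genes were higher in both Hhex-deleted-labelled libraries than in both wild-type libraries, and 1 was lower in both. Of the 83 related genes tested, 27 were higher and 5 lower in this way. Over all genes tested 21.9% were higher and 23.7% lower, so both lists held a larger share of higher genes. The median log2 fold change of the BAF list was 0.08, and the cause of this lean was not tested.

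Some of these counts carry a limit of annotation. The genes Rbbp4, Rbbp7, Cbx6, Cbx7 and Ash1l each overlap another protein-coding gene in the RefSeq annotation of GRCm38 (Sync, Txlng, Npcd, Apobec3 and Dap3, in that order). The sources used here give no strand setting for the counting, so reads from such overlaps may not be separated.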

How the data were processed

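Gene counts, whole numbers of reads per Entrez gene, were deposited by the authors for all 4 libraries, which were grouped by their titles. The authors also deposited log2 RPKM values and gene lengths per library for 12662 genes. Per the submitters' processing notes, the tools were Subread, featureCounts and limma and the build was mm9, with neither versions nor roles. The sources used here give no strand setting and no filter. The sorted deposited log2 RPKM values, with gene length added, differed by a median of only 0.00081 from library to library, so a normalization to a shared distribution had been applied that the labels do not mention. They served as 1 alternative.

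The main test was that of edgeR 4.0.16 in R 4.3.3 (filterByExpr with count and total minimums of 10 and 15, TMM factors, robust quasi-likelihood test with group as its term, Benjamini-Hochberg adjustment over 14912 genes). The Hhex-deleted-labelled libraries held 29501591 and 29372938 counts and the wild-type libraries 27871827 and 28584399, where 3 reads equal 0.0995 to 0.109 CPM. CPM are counts scaled to the TMM-adjusted library size, RPKM are CPM per kilobase of the deposited gene length, and paralogue ratios use RPKM with no pseudocount. SE is the size of the log2 fold change over the square root of F, and 95% intervals use it with the fit's degrees of freedom, both approximate. The biological coefficient of variation was 16.3%. No pair of libraries matched within sampling noise, with a chi-square of at least 28.53 per degree of freedom. Scripts were tested on simulated counts.

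Alternatives were DESeq2 1.42.0, limma-voom and limma 3.58.1 on the deposited log2 RPKM, other size factors, no filter, a replicate block and each library left out. Values in every library are given for all members in a paralogue pair or family and for those with an unadjusted p under 0.05, and related genes are named where called. The members, the gene lists and the naming rule were chosen with earlier results of these data known. Promoter windows came from RefSeq on GRCm38.p6, a build other than the authors'. Some marker genes of the lists are not reported here by name.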

Additional observations from a re-analysis of the deposited data

How the results depend on the processing

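The count of members called was 0 in each direction with edgeR under TMM, RLE and upper quartile factors, with limma-voom, with limma on log2 RPKM and with the replicate block. DESeq2 called 1 member higher (Kdm6a) and 1 lower (Pcgf2), no filter on low counts called 1 lower (Pcgf2), and leaving out a library gave 0 to 1 higher and 0 lower. Over all genes the 221 higher and 167 lower calls became 488 and 501 with DESeq2, 123 and 79 with limma-voom, and 34 and 6 with limma on log2 RPKM. Without the filter 272 genes were lower. Leaving out a library gave 84 to 366 higher and 40 to 231 lower, lowest for both without wild-type replicate 2, and 0 to 1 related genes higher. The cause was not tested. The members' median log2 fold change stayed between 0.0 and 0.10 when a library was left out.

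Of the 37 log2 fold changes, 21 did not change sign with another tool, another scaling, no filter, the block or a library left out. The other 16 did in at least 1 of these, and with all libraries they lay between -0.44 for Kdm6b and 0.22 for Cbx2. Ash2l was 0.02 with limma on log2 RPKM and with upper quartile factors, Rbbp7 was 0.02 with upper quartile factors, and both were 0.0 to 2 decimals, with the sign turned, under DESeq2 and RLE factors. Leaving out a library turned the sign or moved the log2 fold change by over 1.5 times for 33 of 37 members, the others being Jarid2, Pcgf2, Pcgf6 and Phc2. With a library left out, the ranges were -0.01 to 0.15 for Suz12, -0.01 to 0.04 for Rbbp4, -0.02 to 0.01 for Rbbp7, -0.15 to 0.0 for Pcgf5, -0.02 to 0.12 for Aebp2, -0.13 to 0.19 for Mtf2, -0.14 to 0.20 for Phf1, -0.16 to 0.04 for Pcgf3 and -0.02 to 0.19 for Rnf2. They were -0.02 to 0.44 for Cbx2, -0.11 to 0.35 for Cbx6, -0.09 to 0.26 for Cbx8, -0.01 to 0.17 for Men1, -0.07 to 0.07 for Ash2l, -0.06 to 0.11 for Rbbp5 and -0.93 to 0.31 for Kdm6b. The comparisons within libraries numbered 1 and within those numbered 2 were added after the data were seen.

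Libraries with the same replicate number deviated together from their group means (r = 0.326 across 14912 genes, which are not independent replicates). The labels do not say what a number marks, so the number was not taken as a pairing. With the replicate number as a block, 185 genes were higher and 130 lower, 0 members were called, 9 of 37 members and 19.3% of all genes had an unadjusted p under 0.05, and Pcgf2 stood at -0.76 with an edgeR adjusted p of 0.0816. Each member had at least 143 reads in every library, and each group holds 2 libraries.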
